A study of Mus musculus with 20 samples.

Results

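The respiratory chain and ATP synthase genes were represented by 71 array elements for 53 genes, taken from the 11552 elements of a mouse cDNA array. An array element is a spotted cDNA clone. An element was included when the array annotation gave it a single matching gene symbol and at most 3 of its 20 values were missing. The symbol alone placed it in complex I (Nduf), complex II (Sdha to Sdhd), complex III (Uqcr and Cyc1), complex IV (Cox4 to Cox8), complex V (Atp5) or cytochrome c (Cycs). All 71 elements had a value on all 20 arrays and all were among the 11159 elements tested. Complex I held 30 elements of 20 genes, complex II 2 elements of 2 genes, complex III 9 elements of 8 genes, complex IV 12 elements of 9 genes, complex V 17 elements of 13 genes and cytochrome c 1 element. A further 11 elements whose annotation joined a matching symbol with other symbols were not used.

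The respiratory chain is a series of protein complexes in the inner mitochondrial membrane. Complexes I and II take up electrons from NADH and succinate, complex III passes them to cytochrome c, complex IV gives them to oxygen, and complex V, the ATP synthase, uses the proton gradient that complexes I, III and IV build. Most subunits are encoded in the nucleus and some in the mitochondrial genome, and the secretory epithelium of the prostate is known for an unusual energy metabolism in which much citrate is secreted instead of being oxidized.

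The samples were 20 pools of amplified prostate RNA, 4 from each of the inbred strains BALB/c, DBA/2, C57BL/6, 129X1/Sv and FVB/N, all from mice aged 8 to 9 weeks with no treatment named. Each pool joined RNA of the dorsal, lateral, ventral and anterior lobes of 3 mice, so that 12 mice stood behind a strain, and was hybridized against a common reference made from RNA of all strains. A value is the log2 ratio of the pool over that reference, so a difference of 1 between strains is a doubling, and no value gives an absolute level or a comparison between genes. Every strain had 2 pools in the dye Cy3 and 2 in Cy5, and the design asked how far transcript levels of the normal prostate differ between genetic backgrounds. Whole prostates were measured, so fewer cells of a type and less RNA per cell cannot be told apart.

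The 129X1/Sv arrays had a wider spread than the others. The median absolute deviation of the log2 ratios over all elements was 0.20 to 0.29 on the 129X1/Sv arrays and 0.11 to 0.20 on the arrays of the other strains, and it was highest in 129X1/Sv pool 4. That pool held the highest of the 20 values for 32 of the 71 respiratory chain elements (45.1%, against 16.1% of the 10729 elements without a missing value). Means of complexes and calls that rest on 129X1/Sv are therefore given with and without pool 4.

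Most respiratory chain elements were low in C57BL/6 and DBA/2 and high in 129X1/Sv. The difference of a strain is its mean log2 ratio minus the average of the means of the 4 others. In C57BL/6, 58 of 71 elements (81.7%) lay below the other strains, with a median difference of -0.18, and in DBA/2 61 of 71 (85.9%) did so, with a median of -0.15. Among all elements tested these shares were 48.9% and 48.2% and the medians were 0.00 and 0.01. In 129X1/Sv 59 of 71 elements lay above the other strains, with a median difference of 0.19, and without pool 4 the count was 54 and the median 0.13. FVB/N and BALB/c lay between, with medians of 0.06 and 0.07. The strain with the lowest mean was C57BL/6 or DBA/2 for 62 of 71 elements (87.3%, against 36.0% of all elements), and the strain with the highest mean was 129X1/Sv for 37 of 71 (52.1%, against 24.2%), or 31 of 71 without pool 4 (43.7%, against 25.7%). These directions were the same in the Cy3 pools, where 56 elements were below the others in C57BL/6, 57 below in DBA/2 and 53 above in 129X1/Sv, and in the Cy5 pools, where the counts were 60, 59 and 59. Not every pool followed its strain. In 129X1/Sv pool 1, 50 of 71 log2 ratios were below 0 (mean -0.06), and in DBA/2 pool 4 only 29 were (mean 0.01). The elements share the same arrays and do not vary independently, so these counts describe the 20 pools and carry no test.

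**Figure D1:**
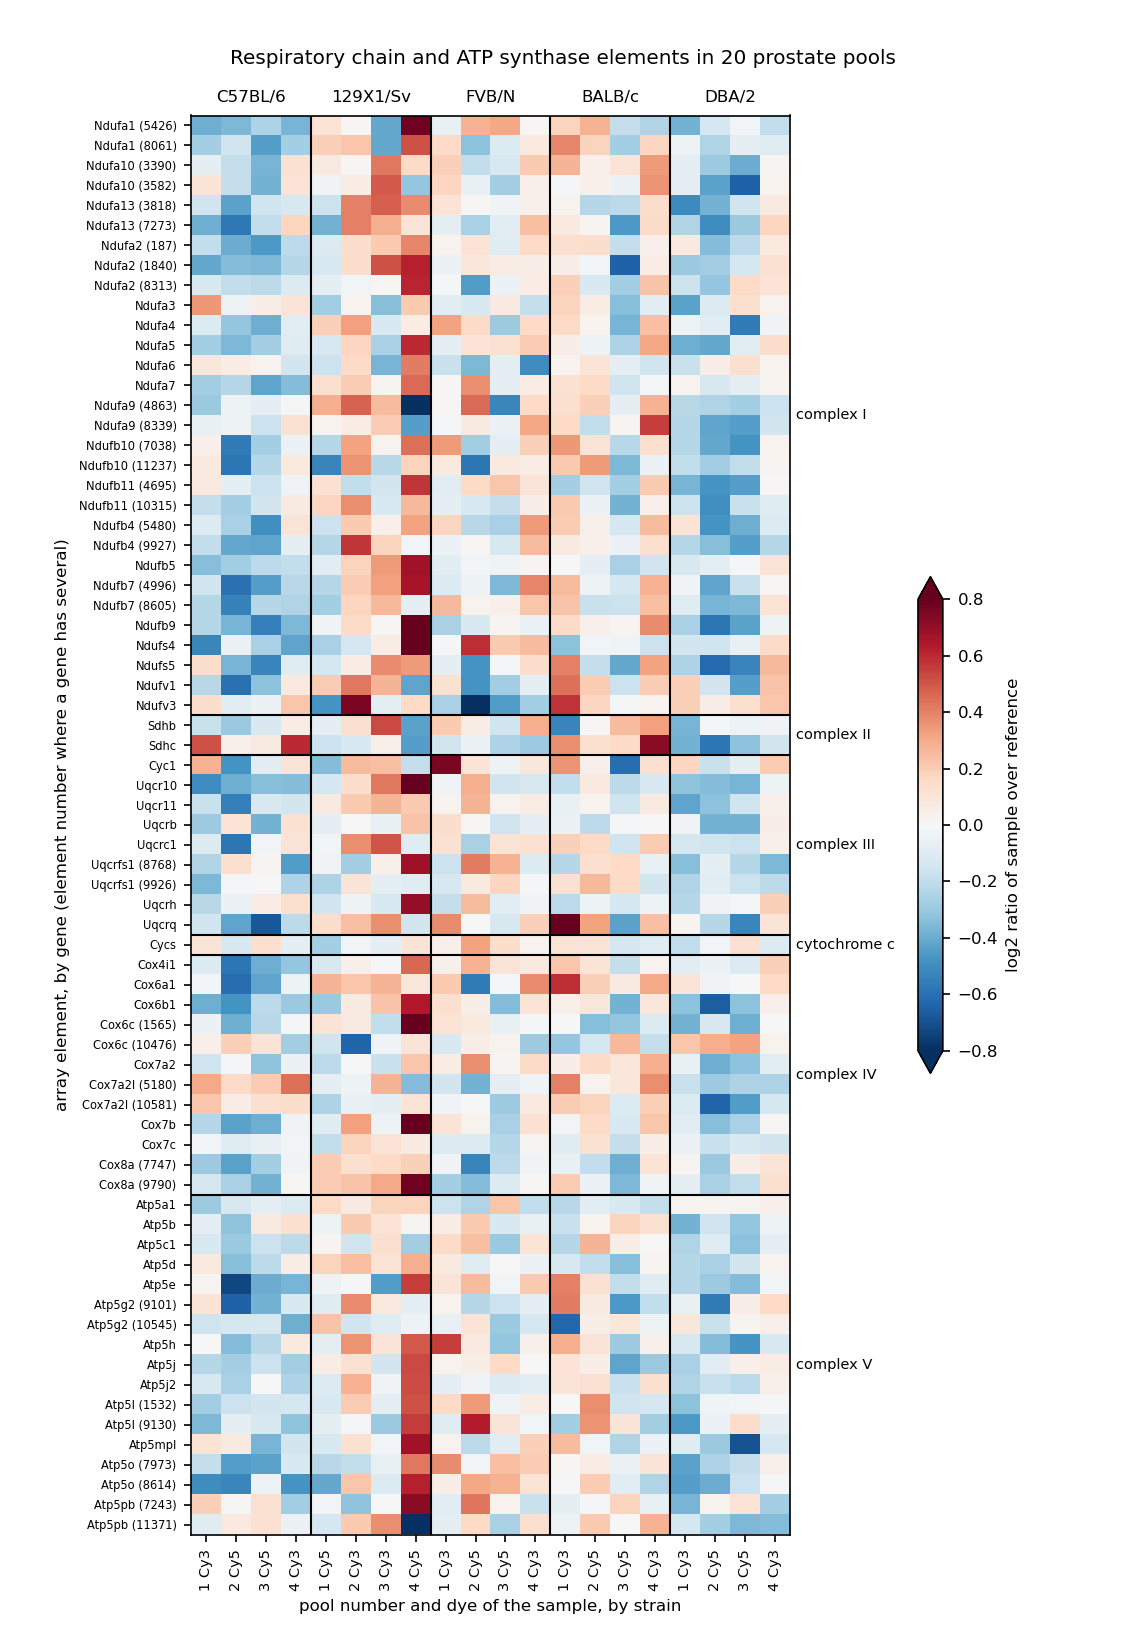
Log2 ratio of sample over reference for the 71 respiratory chain and ATP synthase elements (rows, grouped by complex) in the 20 pools (columns, grouped by strain, with pool number and dye). Blue values (below 0) dominate the C57BL/6 columns and DBA/2 pools 1 to 3, but not DBA/2 pool 4 (29 of 71 elements). They also dominate 129X1/Sv pool 1 (50), BALB/c pool 3 (54) and FVB/N pool 3 (48). The highest value of 32 elements lies in 129X1/Sv pool 4. Sdhc and both elements of Cox7a2l are among the 13 elements that were not below the other strains in C57BL/6.

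The differences were small. The highest strain mean exceeded the lowest by a median of 0.41 on the log2 scale (1.33-fold) over the 71 elements, against 0.32 (1.25-fold) over all elements tested, and the median SD within strains was 0.23 against 0.22. The widest respiratory chain element, Uqcr10, spanned 0.88 (1.84-fold), whereas the widest element on the array spanned 197-fold.

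In limma's moderated F test over the 5 strains, 8 of 71 elements from 7 genes passed an adjusted p of 0.1, against 11.3% of all elements tested (1256 of 11159). This share is near the background and is not a result about the respiratory chain. It moved with the model, to 21 of 71 (29.6%, against 15.6% of all elements) with the dye as a term, 27 (38%, against 18.8%) with array weights and 1 (1.41%, against 7.26%) on the Cy3 arrays alone. At an unadjusted p under 0.05 the test took 26 of 71 elements (36.6%, against 19.9% of all elements). The elements past the adjusted threshold were Sdhc of complex II, Cox7a2l (both elements) and Cox8a of complex IV, Ndufa7, Ndufb5 and Ndufb9 of complex I and Uqcr11 of complex III, and none of the 17 complex V elements passed, with 4 of them at an unadjusted p under 0.05. When single strains were set against the others at an adjusted p under 0.05, C57BL/6 was lower for 2 elements (background 1.44%) and 129X1/Sv was higher for 5 (background 2.96%). No element passed in FVB/N, BALB/c or DBA/2 with limma, where the backgrounds were 1.22% higher and 1.34% lower, 0.914% and 1.12%, and 1.09% and 0.869%, in this order, and 7, 5 and 15 of 71 had an unadjusted p under 0.05 (background 11.5%, 9.53% and 10.6%). No element was higher in C57BL/6 (background 1.77%) or lower in 129X1/Sv (2.74%), with 3 and 0 of 71 so at an unadjusted p under 0.05. At that unadjusted p, 24 of 71 elements differed between C57BL/6 and the others (background 13.5%), 21 of them lower, and 20 between 129X1/Sv and the others (background 20.5%), all of them higher. When arrays were scaled to 1 spread or quantile normalized, 1 of the 5 calls in 129X1/Sv remained, that of Uqcr10.

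**Figure D2:**
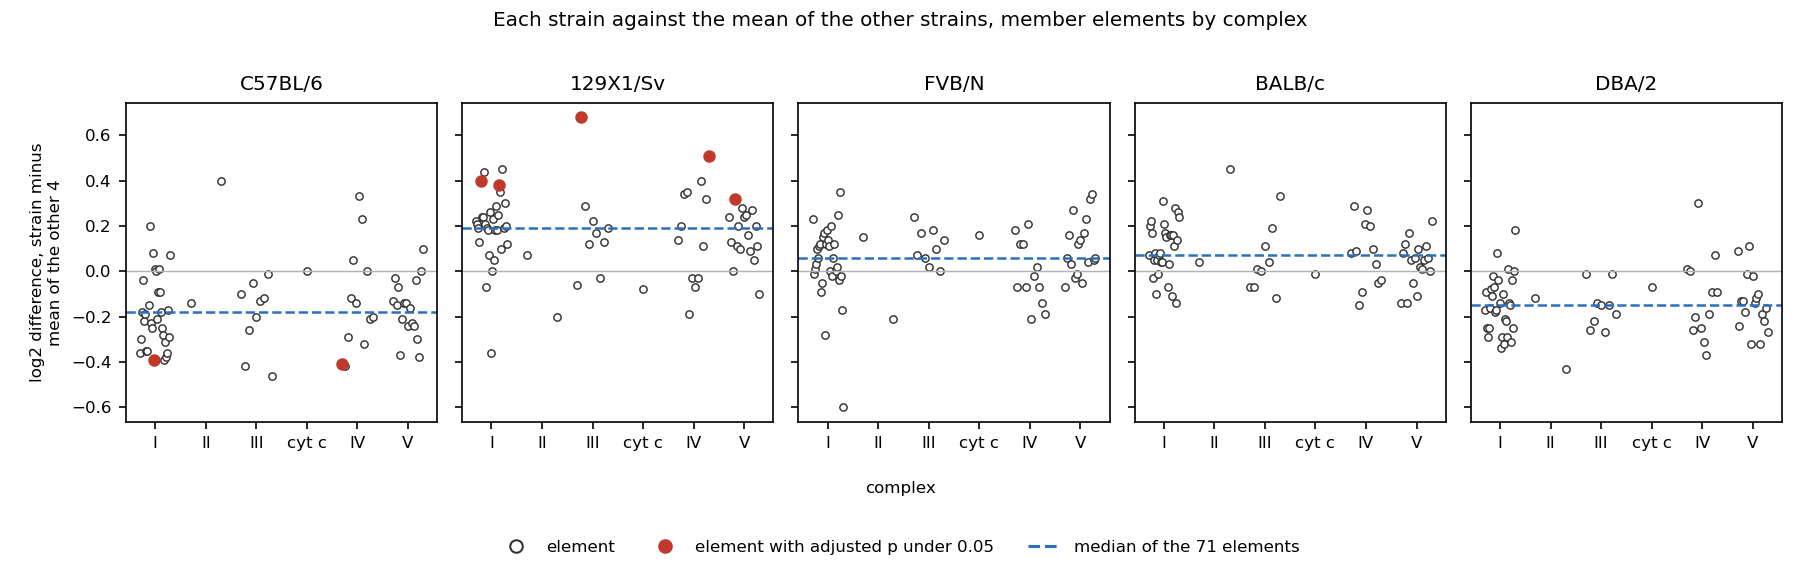
Difference of each strain from the mean of the other 4 strains on the log2 scale (vertical) for the member elements of complexes I to V and cytochrome c (horizontal), 1 panel per strain. Filled points passed an adjusted p under 0.05, 2 in C57BL/6 and 5 in 129X1/Sv, and the dashed line is the median of the 71 elements, which lay at -0.18 in C57BL/6, 0.19 in 129X1/Sv and -0.15 in DBA/2.

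Promoter sequence is shown for 4 of the genes past a test, chosen as examples with and without a match to motifs known from promoters of nuclear genes of the respiratory chain. The sequences are the 250 bases before the start in RefSeq (build GRCm38.p6), written 5′ to 3′ along the gene, and capitals mark the match. Ndufb5 (chr3:32736813-32737062, plus strand) holds AANATGGC, the core of the YY1 motif, at -225 and -73 from the start. Ndufa7 (chr17:33824395-33824644, plus strand, 1 of its 2 starts) holds it at -18. Uqcr11 (chr10:80406822-80407071, minus strand) holds CCGGAAG, the core of the ETS motif bound by GABPA, at -66. Cox7a2l (chr17:83514334-83514583, minus strand) holds no match to any motif searched, like 25 of the 43 genes with an entry, Ndufa13, Uqcr10, Cox8a and Atp5d among them.
Ndufb5: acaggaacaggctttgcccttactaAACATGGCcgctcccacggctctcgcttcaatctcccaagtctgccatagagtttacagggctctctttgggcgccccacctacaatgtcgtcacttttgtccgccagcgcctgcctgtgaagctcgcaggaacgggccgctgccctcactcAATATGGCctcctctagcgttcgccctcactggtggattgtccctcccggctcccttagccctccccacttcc
Ndufa7: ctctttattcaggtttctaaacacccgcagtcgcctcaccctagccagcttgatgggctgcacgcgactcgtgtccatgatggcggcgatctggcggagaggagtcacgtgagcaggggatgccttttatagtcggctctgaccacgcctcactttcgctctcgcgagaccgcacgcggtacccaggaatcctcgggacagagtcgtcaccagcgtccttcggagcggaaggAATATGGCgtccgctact
Uqcr11: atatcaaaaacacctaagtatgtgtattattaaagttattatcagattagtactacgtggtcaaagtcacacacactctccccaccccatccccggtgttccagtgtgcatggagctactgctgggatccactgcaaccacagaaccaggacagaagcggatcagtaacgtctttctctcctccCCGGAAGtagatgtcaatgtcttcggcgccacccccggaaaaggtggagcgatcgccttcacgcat
Cox7a2l: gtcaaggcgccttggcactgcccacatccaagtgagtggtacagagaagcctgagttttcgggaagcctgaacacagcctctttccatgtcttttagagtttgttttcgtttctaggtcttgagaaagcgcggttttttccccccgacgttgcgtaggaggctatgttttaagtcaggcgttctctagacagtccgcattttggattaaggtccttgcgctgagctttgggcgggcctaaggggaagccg

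Promoter entries were found for 43 of the 53 genes, and both strands of the 250 bases were searched for 4 motifs, whose matches did not overlap one another in these genes. The NRF1 motif, GCGCA and GCGC with any base between them, was in 7 of 43 genes (16.3%, against 4.23% of 27025 genes). CCGGAAG was in 9 (20.9%, against 7.83%) and AANATGGC in 5 (11.6%, against 4.49%). TCAAGGTCA, the ESRRA motif, was in 0 of 43 (against 0.422%). The median GC content of the promoters was 56.0%, against 52.4% over all promoters. A match is a run of letters and not a measured site, and the absence of a match says only that these letters are not in this window.

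Complex I, the NADH dehydrogenase, was low in C57BL/6 and DBA/2. Its mean over 20 genes, with 1 element per gene, was -0.13, -0.28, -0.28 and -0.11 in the C57BL/6 pools and -0.15, -0.27, -0.22 and 0.04 in the DBA/2 pools, numbered from 1 to 4. The mean was -0.07, 0.19, 0.06 and 0.27 in the 129X1/Sv pools. All C57BL/6 pools were below 0 and 3 of 4 pools of 129X1/Sv above it, and the highest C57BL/6 pool lay below the lowest 129X1/Sv pool. The strain means were -0.20 ± 0.09 (SD, n = 4) in C57BL/6, -0.15 ± 0.14 in DBA/2 and 0.11 ± 0.15 in 129X1/Sv, with -0.02 ± 0.07 for FVB/N and 0.04 ± 0.14 for BALB/c. Without pool 4 the 129X1/Sv mean was 0.06. Of 30 elements, 25 were below the other strains in C57BL/6, 26 in DBA/2, and 27 above them in 129X1/Sv. Ndufa4 was counted in complex I by its symbol alone, and without it the strain means of complex I were the same to the second decimal.

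Ndufa7, an accessory subunit, was the clearest complex I gene in C57BL/6. Its log2 ratios were -0.28, -0.23, -0.42 and -0.35 in the C57BL/6 pools, and the other 16 pools ran from -0.16 (BALB/c pool 3) to 0.45 (129X1/Sv pool 4). The C57BL/6 pools lay below all others, which held for 1 of 71 members against 0.358% of all elements, and 0 members were above all others in C57BL/6 (0.502%), below in 129X1/Sv (0.511%), or above or below in DBA/2 (0.376% and 0.305%), BALB/c (0.296% and 0.269%) or FVB/N (0.269% and 0.43%). The difference from the other strains was -0.39 (standard error 0.09, adjusted p = 0.0205 from limma), and it was -0.37 in the Cy3 pools and -0.40 in the Cy5 pools. Without C57BL/6 pool 1, 3 or 4 the call was lost (adjusted p up to 0.0922 with 1 pool left out).

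Ndufb5, another accessory subunit, was high in 129X1/Sv. The 129X1/Sv pools read -0.09, 0.18, 0.34 and 0.67, the C57BL/6 pools -0.34, -0.28, -0.21 and -0.20, and the pools of the other strains ran from -0.26 to 0.11. Thus 3 of 4 pools of 129X1/Sv were above all other pools and pool 1 was among them. The difference was 0.38 (standard error 0.10, adjusted p = 0.0243 from limma), and the call was lost without pool 3 or pool 4 of 129X1/Sv (adjusted p up to 0.0919).

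Ndufb9 and Ndufa13 were also highest in 129X1/Sv, with C57BL/6 and DBA/2 the 2 lowest strains. Ndufb9, which belongs to the membrane arm, read -0.03, 0.15, 0.01 and 0.99 in the 129X1/Sv pools, -0.23, -0.37, -0.55 and -0.36 in C57BL/6 and -0.26, -0.58, -0.43 and -0.04 in DBA/2 (adjusted p = 0.0598 over the strains from limma). The high 129X1/Sv mean of 0.28 ± 0.48 rested mainly on pool 4, and the call was lost without C57BL/6 pool 3 or DBA/2 pool 2 or 3 (adjusted p up to 0.119). Ndufa13, also known as GRIM-19 for its part in interferon-induced cell death, read -0.17, 0.40, 0.48 and 0.38 in 129X1/Sv on element 3818, where the strain was higher by 0.40 (standard error 0.12, adjusted p = 0.0493 from limma). The second element of the gene gave -0.38, 0.40, 0.29 and 0.10 and a difference of 0.24 (adjusted p = 0.397). The call on the first element was lost when any of 17 pools was left out.

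Other complex I genes spanned wide or narrow ranges without passing a test. Ndufv3, a subunit of the NADH-binding part, had the widest span of 0.67, from -0.48 ± 0.32 in FVB/N to 0.19 ± 0.27 in BALB/c (adjusted p = 0.157 over the strains from limma). Ndufb7 spanned 0.59 on one element and 0.45 on the other, with C57BL/6 lowest on both. By the element that represents the gene, the narrowest were Ndufa3, at 0.21, and Ndufa6, at 0.29, while the second element of Ndufb10 spanned 0.20. Ndufv1, which carries the NADH-binding site and was the 1 core subunit measured, was -0.27 ± 0.28 in C57BL/6 and 0.17 ± 0.25 in BALB/c.

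Complex II, succinate dehydrogenase, which also serves the tricarboxylic acid cycle, was measured through 2 of its subunits only. Sdhc, one of the anchors that hold the enzyme in the membrane, gave the lowest adjusted p of all members. Its log2 ratios were 0.51, 0.04, 0.07 and 0.60 in the C57BL/6 pools and 0.37, 0.13, 0.15 and 0.72 in the BALB/c pools. The DBA/2 pools read -0.38, -0.58, -0.33 and -0.15, the FVB/N pools -0.15, -0.05, -0.25 and -0.29, and the 129X1/Sv pools -0.17, -0.12, 0.04 and -0.44. All 8 pools of C57BL/6 and BALB/c were above 0, and of the other 12 pools only pool 3 of 129X1/Sv was. The means were 0.31 ± 0.29 in C57BL/6 and 0.34 ± 0.28 in BALB/c against -0.36 ± 0.17 in DBA/2, a span of 0.70 (1.63-fold, adjusted p = 0.00935 over the strains from limma). In both high strains the Cy3 pools (1 and 4) were higher than the Cy5 pools, and over all strains Sdhc was lower by 0.26 in Cy5 (adjusted p = 0.0299 from limma). The test over the strains was passed without any single pool (adjusted p 0.00691 to 0.0249), and with the dye as a term in the model the adjusted p was 0.001. It was 0.028 on the Cy3 arrays alone and 0.339 on the Cy5 arrays alone.

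Sdhb, the iron-sulfur subunit of the same enzyme, did not share this pattern. It read -0.18, -0.30, -0.12 and 0.06 in C57BL/6 and -0.53, 0.01, 0.25 and 0.33 in BALB/c, and its strain means spanned 0.24 (adjusted p = 0.882 over the strains from limma). The pools of all strains overlapped. The mean of the complex was thus 0.09 ± 0.20 in C57BL/6 and 0.18 ± 0.26 in BALB/c and -0.24 ± 0.12 in DBA/2, a span of 0.41 that rests on Sdhc.

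Complex III, the cytochrome bc1 complex, was like complex I lowest in C57BL/6 and DBA/2 and highest in 129X1/Sv. Its mean over 8 genes was -0.18, -0.28, -0.20 and -0.09 in the C57BL/6 pools, -0.16, -0.21, -0.24 and 0.03 in the DBA/2 pools and -0.07, 0.11, 0.21 and 0.36 in the 129X1/Sv pools. The strain means were -0.18 ± 0.08, -0.15 ± 0.12 and 0.15 ± 0.18, with 0.00 ± 0.13 in BALB/c and 0.06 ± 0.08 in FVB/N, and without pool 4 the 129X1/Sv mean was 0.08. The C57BL/6 pools lay below those of 129X1/Sv. All 9 elements were below the other strains in C57BL/6 and all 9 in DBA/2.

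Uqcr11 and Uqcr10, both small subunits of this complex, were the members past a test. Uqcr11 read 0.07, 0.21, 0.27 and 0.21 in 129X1/Sv, -0.18, -0.55, -0.12 and -0.15 in C57BL/6 and -0.42, -0.33, -0.16 and 0.04 in DBA/2 (adjusted p = 0.0517 over the strains from limma). All 129X1/Sv pools were above the C57BL/6 and DBA/2 pools, and FVB/N pools, at 0.03 to 0.27, overlapped with them. The adjusted p was 0.103 without DBA/2 pool 2. Uqcr10 read -0.14, 0.14, 0.42 and 1.51 in 129X1/Sv and was higher there by 0.68 (standard error 0.18, adjusted p = 0.0319 from limma). Its pools differed more among themselves (SD 0.72) than in any other strain, and without pool 3 or pool 4 the call was lost. Uqcrq spanned 0.63, from -0.37 ± 0.24 in C57BL/6 to 0.26 ± 0.55 in BALB/c, without passing the test (adjusted p = 0.267 from limma). Uqcrh and Uqcrb had the narrowest spans, 0.20 and 0.21.

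Cytochrome c, the mobile carrier between complexes III and IV, was measured by 1 element of Cycs. Its strain means lay between -0.06 ± 0.15 in 129X1/Sv and 0.13 ± 0.13 in FVB/N (adjusted p = 0.727 from limma), and C57BL/6, at 0.01 ± 0.13, was not low.

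Complex IV, cytochrome c oxidase, again had its lowest mean in C57BL/6 and its highest in 129X1/Sv. The mean over 9 genes was -0.11, -0.32, -0.23 and -0.04 in the C57BL/6 pools, -0.12, -0.26, -0.19 and 0.00 in the DBA/2 pools and -0.05, 0.11, 0.07 and 0.36 in the 129X1/Sv pools. The strain means were -0.17 ± 0.13, -0.14 ± 0.11 and 0.12 ± 0.17, and pools of C57BL/6 and 129X1/Sv overlapped at -0.04 and -0.05. Without pool 4 the 129X1/Sv mean was 0.04, as was that of BALB/c. Of 12 elements 8 were below the other strains in C57BL/6, and the others were Cox7c (difference 0.00), Cox6c element 10476 and both elements of Cox7a2l. Without Cox7a2l the C57BL/6 mean was -0.23 ± 0.13 and the span of the complex rose from 0.30 to 0.37.

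**Figure D3:**
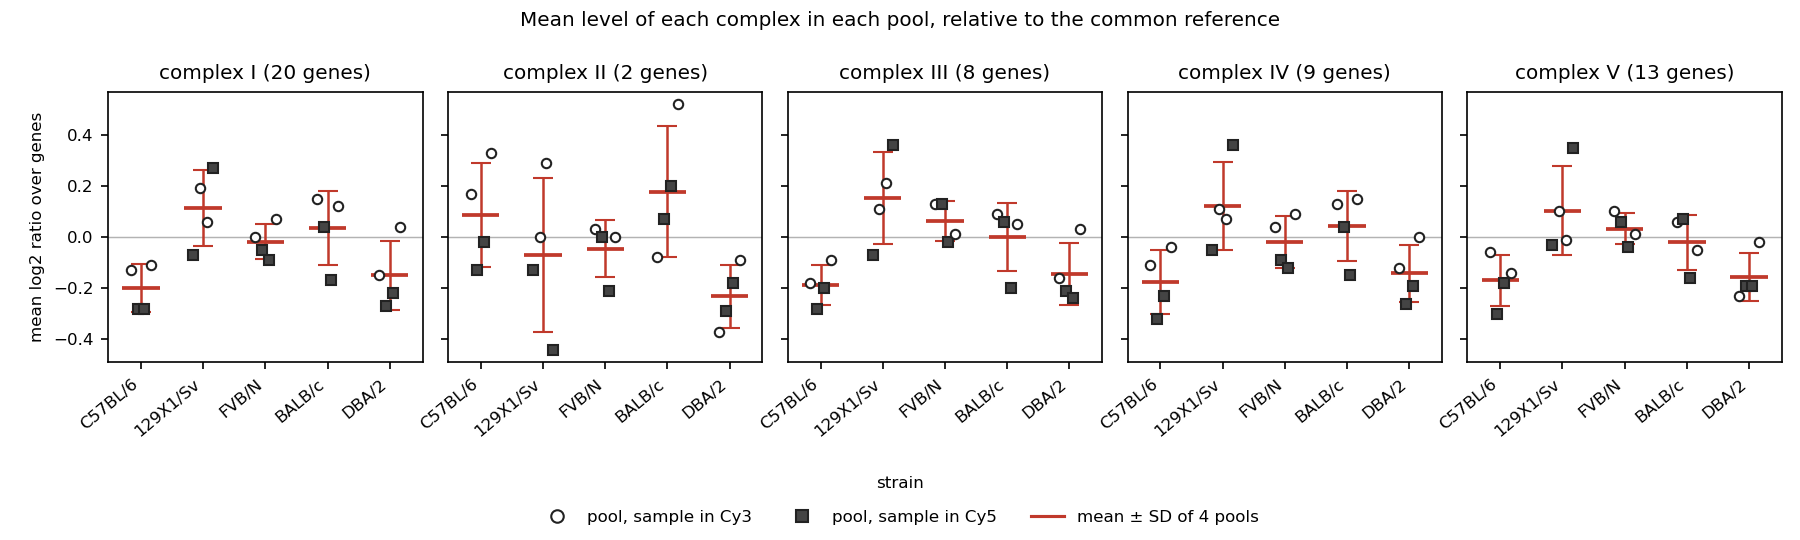
Mean log2 ratio over the genes of each complex (vertical) in each of the 4 pools of the 5 strains (horizontal), 1 panel per complex. Open circles are pools labelled with Cy3, filled squares pools labelled with Cy5, and red bars are the mean ± SD. Complexes I, III, IV and V had C57BL/6 and DBA/2 lowest and 129X1/Sv highest, and complex II did not.

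Cox7a2l, which is also called SCAF1 and helps to join complexes III and IV into supercomplexes, went the other way in C57BL/6. As background, some inbred strains, among them C57BL/6 and BALB/c, are known to carry a shortened form of this protein. Element 5180 read 0.30, 0.15, 0.20 and 0.44 in the C57BL/6 pools and 0.40, 0.03, 0.09 and 0.37 in the BALB/c pools. It read -0.18, -0.29, -0.25 and -0.25 in DBA/2. It read -0.15, -0.38, -0.08 and -0.03 in FVB/N and -0.08, -0.04, 0.27 and -0.35 in 129X1/Sv. All 8 pools of C57BL/6 and BALB/c were above 0, and 11 of the other 12 were below. The span from C57BL/6 to DBA/2 was 0.51 (1.43-fold, adjusted p = 0.0268 over the strains from limma). Element 10581 had the same highest and lowest strain, at 0.14 ± 0.06 in C57BL/6, 0.11 ± 0.15 in BALB/c and -0.33 ± 0.26 in DBA/2 (adjusted p = 0.0901), and this call was lost without any of 12 pools. The strain means of the elements correlated at 0.92 over the 5 strains, whereas their deviations from the strain means correlated at 0.04 over the 20 pools.

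Sdhc and Cox7a2l were thus both high in C57BL/6 and BALB/c and low in DBA/2, unlike most members. Over the 20 pools, which are the same arrays for both, Sdhc correlated with element 5180 of Cox7a2l at 0.86 (Spearman's rho 0.83) and with element 10581 at 0.69, and with the mean of all member genes at 0.08. With the strain means removed the first of these was 0.62 and the second 0.29. This pair was chosen after the values were seen.

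Among the other genes of complex IV, Cox8a was the one past a test in 129X1/Sv. Element 9790 read 0.20, 0.23, 0.30 and 0.78 in 129X1/Sv and between -0.38 and 0.20 in the other 16 pools. The 129X1/Sv pools were all above the others, with pool 1 and BALB/c pool 1 equal to the second decimal, as on element 7747 (0.20, 0.13, 0.16 and 0.19) and for Atp5d, and such a separation held for 3 of 71 members against 0.672% of all elements. The difference on element 9790 was 0.51 (standard error 0.12, adjusted p = 0.0108 from limma), 0.29 in the Cy3 pools and 0.74 in the Cy5 pools. This call held with any 1 pool left out, 129X1/Sv pool 4 included (adjusted p 0.00821 to 0.0456 from limma). It was lost with arrays scaled to 1 spread or quantile normalized. The F test of the same element over the strains (adjusted p = 0.0584 from limma) was not passed without 129X1/Sv pool 4 (adjusted p = 0.161). On element 7747 the difference was 0.32 (adjusted p = 0.0789). Cox4i1, the ubiquitous form of a regulatory subunit, was lower in C57BL/6, with values of -0.11, -0.58, -0.39 and -0.31 and a difference of -0.41 (standard error 0.11, adjusted p = 0.0381 from limma). Pool 1 of C57BL/6 lay among the other strains, and the call was lost without any of 11 pools. Cox7b and Cox6a1 had the widest spans beside these, 0.57 and 0.56, with C57BL/6 lowest (-0.27 ± 0.18 and -0.27 ± 0.29), and Cox7c and Cox7a2 the narrowest, 0.16 and 0.37.

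**Figure D4:**
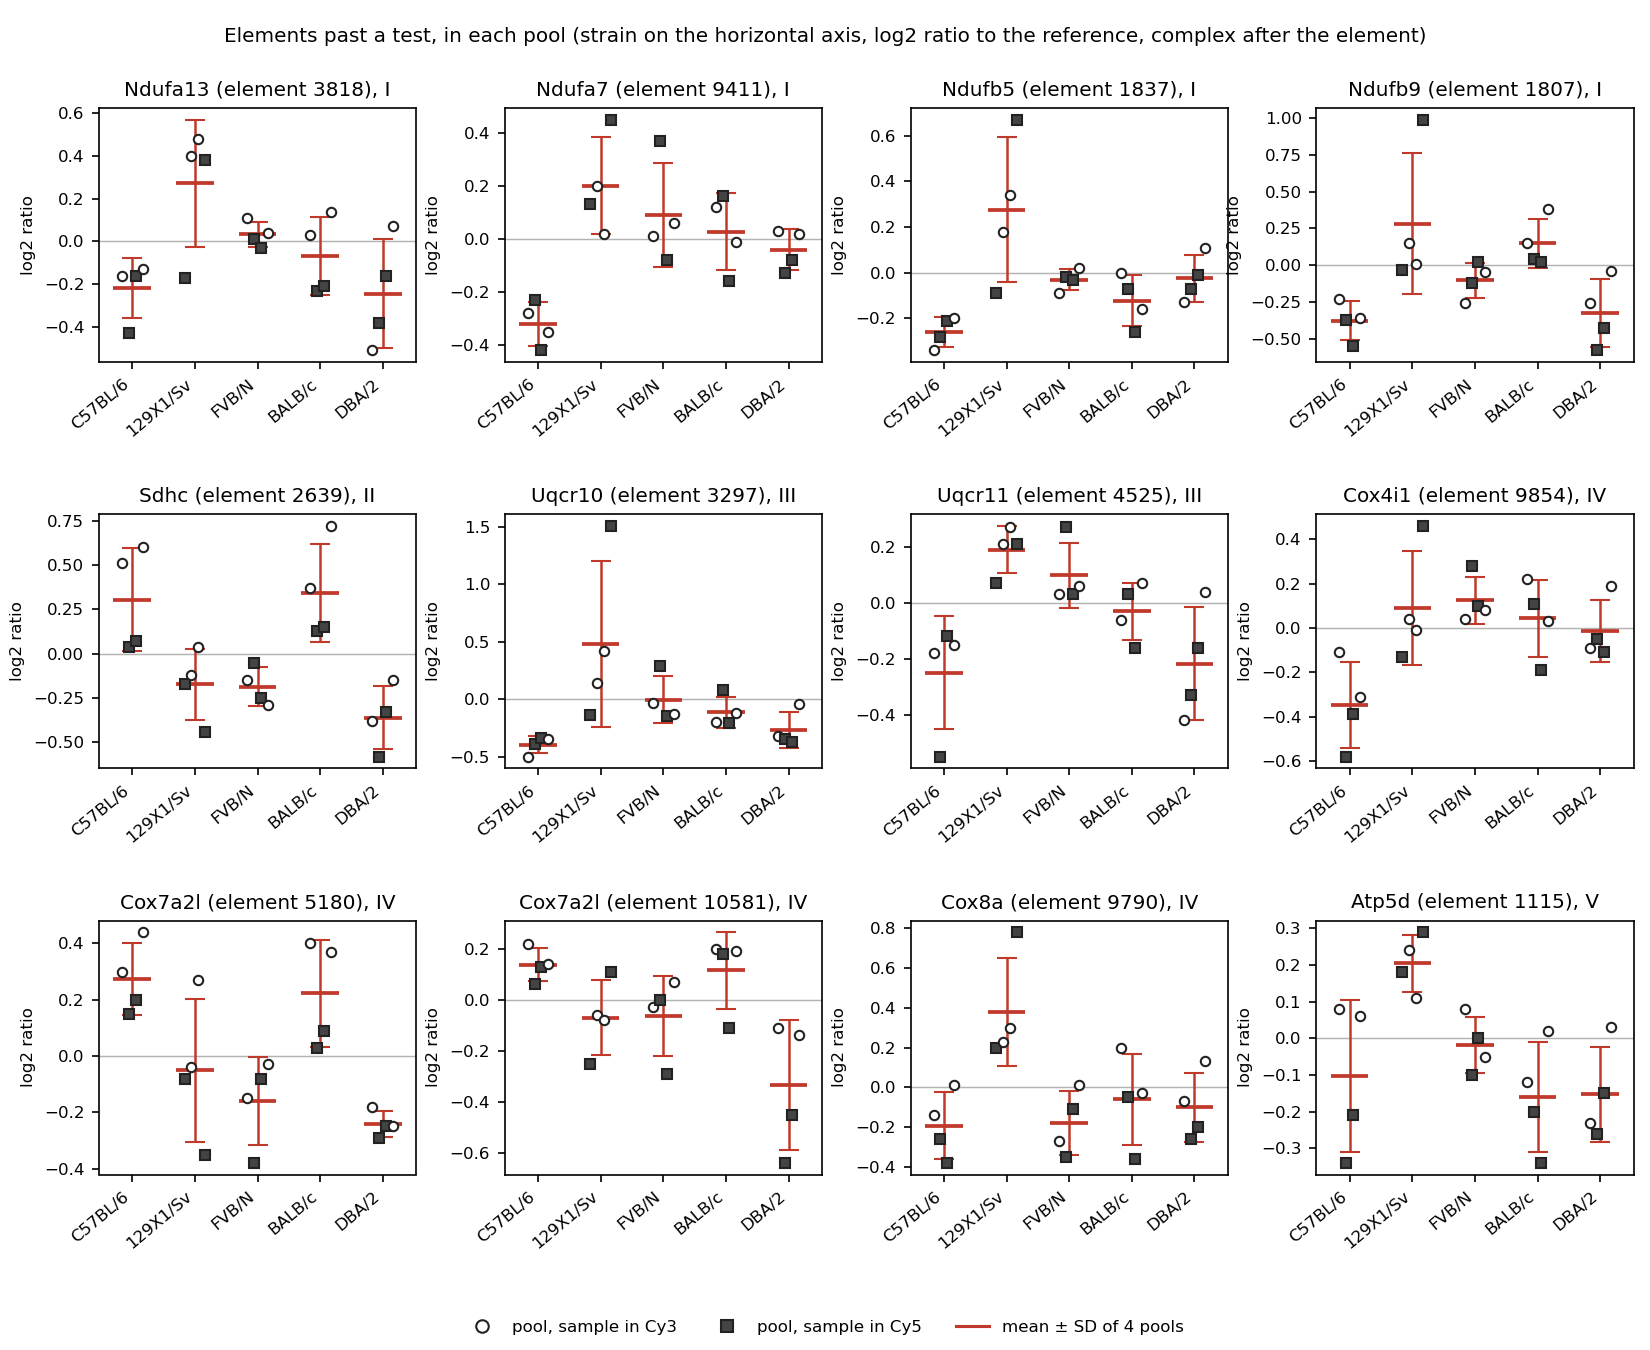
Log2 ratio of sample over reference (vertical) in each of the 4 pools of the 5 strains (horizontal) for the 12 elements past the F test or apart in a strain, with the complex after the element number. Open circles are Cy3 pools, filled squares Cy5 pools, and red bars the mean ± SD. Ndufa7 has its 4 C57BL/6 pools below all others, Cox8a and Atp5d have their 129X1/Sv pools above all others, and Sdhc and Cox7a2l are high in C57BL/6 and BALB/c.

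Complex V, the ATP synthase, had C57BL/6 and DBA/2 lowest and 129X1/Sv highest like complexes I, III and IV, with the smallest span. Its mean over 13 genes was -0.06, -0.30, -0.18 and -0.14 in C57BL/6, -0.23, -0.19, -0.19 and -0.02 in DBA/2 and -0.03, 0.10, -0.01 and 0.35 in 129X1/Sv. The strain means were -0.17 ± 0.10, -0.16 ± 0.09 and 0.10 ± 0.17, with -0.02 ± 0.11 in BALB/c and 0.03 ± 0.06 in FVB/N. Pool 4 held the 129X1/Sv mean up, and without it the mean was 0.02 and FVB/N was highest.

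Atp5d, the delta subunit of the catalytic F1 part, was the complex V member past a test. It read 0.18, 0.24, 0.11 and 0.29 in 129X1/Sv and ran from -0.34 to 0.08 in the other pools. The groups did not overlap, and the difference was 0.32 (standard error 0.09, adjusted p = 0.0395 from limma), but the call was lost without any of 12 pools (adjusted p up to 0.0812). Atp5e, Atp5o and Atp5h, of which Atp5o joins the F1 part to the stalk, had the widest spans by the element that represents the gene, 0.51, 0.50 and 0.48. Atp5o was lowest in C57BL/6 on both elements, at -0.30 ± 0.16 and -0.38 ± 0.23, and highest in FVB/N, at 0.20 ± 0.17 and 0.19 ± 0.13 (adjusted p = 0.129 and 0.172 from limma). Atp5pb and Atp5c1 had the narrowest spans, 0.22 and 0.25.

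Complexes I, III, IV and V moved together from pool to pool. With the strain means removed, the means of these complexes correlated at 0.79 to 0.94 over the 20 pools, highest between complexes I and IV (Spearman's rho 0.95), and at 0.80 to 0.90 with the dye removed too. Complex II correlated with them at -0.20 to 0.09, at -0.38 to -0.18 with the dye removed too and at 0.03 to 0.50 without the 2 pools farthest from the median. Its 129X1/Sv pool 4 had the lowest mean of all (-0.44) where the other complexes had their highest (0.27 to 0.36). The points share the array, its labelling and its normalization. Mitochondrial ribosomal protein genes (29 genes) correlated with complexes I, III, IV and V at 0.83 to 0.89 and cytosolic ribosomal protein genes (47 genes) at 0.48 to 0.82. With the dye removed these were 0.81 to 0.90 and 0.72 to 0.92, so that a shared movement was not particular to the respiratory chain. Without the 2 pools farthest from the median they were 0.78 to 0.83 and 0.20 to 0.79, against 0.70 to 0.93 among complexes I, III, IV and V. The strain means of the cytosolic ribosomal genes spanned 0.07 only, against 0.28 for all member genes and 0.18 for the mitochondrial ribosomal genes.

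**Figure D5:**
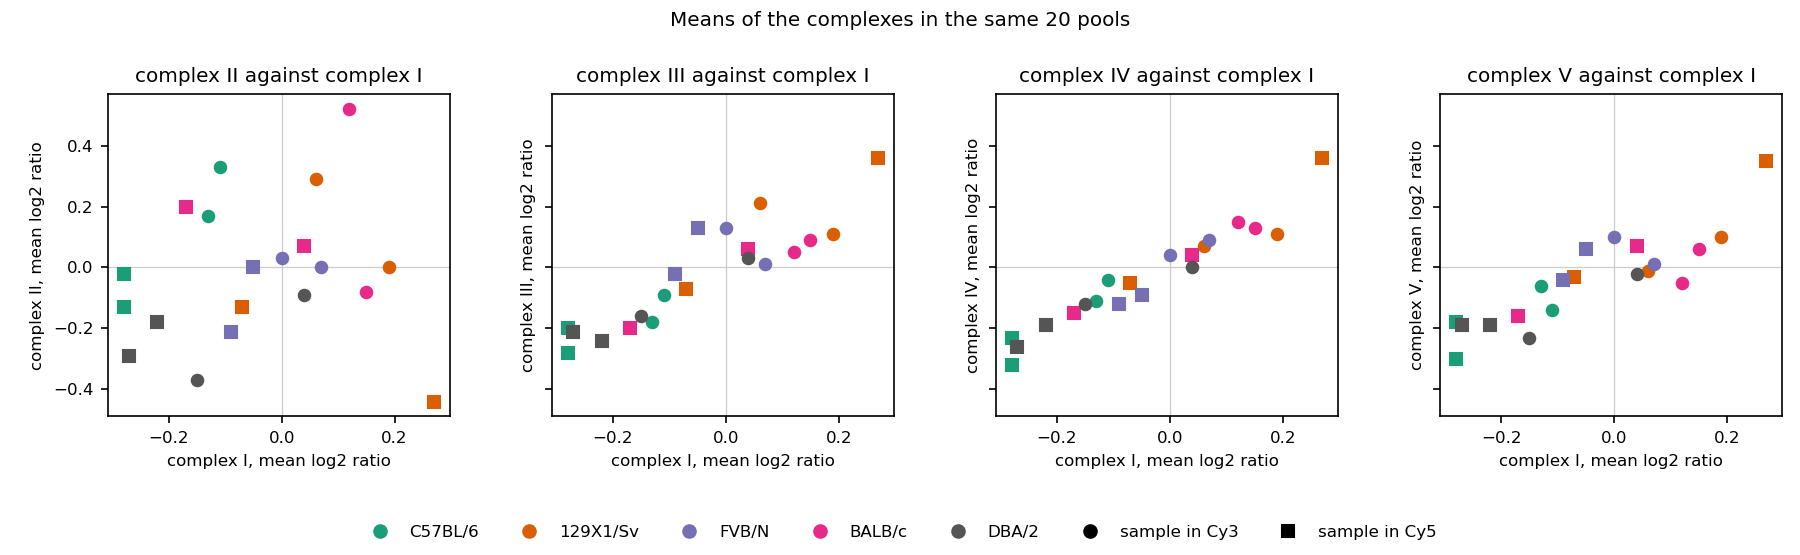
Mean log2 ratio of complexes II, III, IV and V (vertical) against that of complex I (horizontal) in the same 20 pools, coloured by strain, with circles for Cy3 and squares for Cy5. Complexes III, IV and V rise with complex I over the 20 pools, complexes III and V least clearly within FVB/N, and 129X1/Sv pool 4 is highest in complexes I, III, IV and V and lowest in complex II.

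Between single elements the shared movement was weaker. Deviations from the strain means correlated with a median r of 0.326 between genes of the same complex (655 pairs) and 0.234 between complexes (1811 pairs), against -0.00259 over all pairs of elements on the array. Elements of 1 gene correlated at a median of 0.557. Of 71 elements, 64 had strain means that correlated above 0 with those of the mean of all member genes over the 5 strains, and 35 above 0.8. That mean itself contains 1 element of each gene, and no share over all elements of the array was taken, so these counts only describe the members. The 7 below 0 were Cox6c element 10476 (-0.85), Ndufa3, Ndufa6, Ndufv3, Ndufa9 element 4863, Cox7a2l element 5180 and Sdhc. Ndufa9 element 4863 stood out by its spread in 129X1/Sv (SD 1.49), where pool 4 read -2.63. The second element of that gene read -0.44 in that pool and had an SD of 0.28 in the strain. Element 4863 represents Ndufa9 in the mean of complex I, so the complex I mean of 129X1/Sv pool 4 (0.27) includes this low value.

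Several elements of a gene mostly told the same story. Of 19 pairs of elements from 17 genes, 16 correlated above 0 over the 20 pools and 14 above 0.5, with a median of 0.65, and 16 had the same lowest strain. The pairs of Cox6c, Atp5pb and Atp5g2 correlated at -0.28, -0.43 and -0.22. Cox6c was lowest in DBA/2 on element 1565 (-0.23 ± 0.19) and highest there on element 10476 (0.21 ± 0.13), so no direction is given for this gene. Many genes of this family have processed pseudogenes or close relatives, and a cDNA spot can bind their transcripts too. Part of the elements of a gene may be the same clone spotted again.

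The dye moved with the members. Respiratory chain elements were lower on the 10 Cy5 arrays than on the 10 Cy3 arrays, by a median log2 difference of -0.11 (against -0.01 over all elements). Of 71 elements 21 differed between the dyes (background 15.9%), and 17 of 71 elements were lower in Cy5 at an adjusted p under 0.05 from limma (background 7.37%). The difference was widest in complex I, with a median of -0.21, and smallest in complex V, with -0.03. The labels put pools 1 and 4 in Cy3 in 4 strains and pools 2 and 3 in 129X1/Sv. Over all elements, the difference of pools 1 and 4 from pools 2 and 3 correlated at 0.42 to 0.66 among those 4 strains and at -0.41 to -0.33 between them and 129X1/Sv. A drawing of the study's design appears to have pools 2 and 3 in Cy3, without regard to strain, and the study's text gives no pool numbers for the dyes. Which dye was the lower one therefore rests on the labels alone, whereas the 2 sets of arrays stay the same. The dyes were balanced within each strain. In the mean over all member genes the order from C57BL/6 lowest through DBA/2 to 129X1/Sv highest was the same in the Cy3 pools (-0.09, -0.08 and 0.10) and the Cy5 pools (-0.25, -0.22 and 0.11). In the Cy3 pools alone BALB/c was highest in complexes I and IV, at 0.13 and 0.14, FVB/N was highest in complex V and DBA/2 lowest there.

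Other mitochondrial genes were set beside the respiratory chain from fixed lists, with 1 element per gene and the F test at an adjusted p of 0.1, which 12.4% of 5820 named genes passed. Mitochondrial ribosomal proteins passed for 6 of 29 genes, and Mrpl41 (from -0.22 ± 0.18 in C57BL/6 to 0.44 ± 0.10 in 129X1/Sv), Mrpl16 and Mrpl19 had the lowest adjusted p. Mrpl16 was lowest in FVB/N and Mrpl19 highest in C57BL/6. The import machinery passed for 2 of 10 genes, Timm8b (from -0.42 ± 0.16 in C57BL/6 to 0.30 ± 0.40 in 129X1/Sv) and Timm10, which encode chaperones of the intermembrane space. Of 6 carriers and porins 1 passed, the adenine nucleotide translocator Slc25a5, at -0.24 ± 0.12 in C57BL/6 and 0.18 ± 0.09 in 129X1/Sv. The mean of the 6 was 0.01 in C57BL/6 and 0.06 in 129X1/Sv. Vdac1 and Vdac2 were highest in C57BL/6 and lowest in 129X1/Sv, whereas Slc25a3 and Vdac3 were highest in 129X1/Sv and lowest in DBA/2.

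Enzymes that feed the chain were counted in the same way. Of 9 genes of the tricarboxylic acid cycle and pyruvate dehydrogenase 1 passed, the succinyl-CoA ligase gene Suclg1, at -0.19 ± 0.14 in C57BL/6 and 0.23 ± 0.10 in 129X1/Sv. The mean of the 9 was -0.02 in C57BL/6 and -0.04 in 129X1/Sv. Mdh2 had the same lowest and highest strain as Suclg1, whereas Dld, Ogdh and Pdhb were lowest in 129X1/Sv. Of 10 genes of fatty acid oxidation 1 passed, the thiolase gene Acaa2, and of 8 glycolytic genes 2 passed, Ldha, lowest in 129X1/Sv at -0.43 ± 0.17, and Gapdh, highest there at 0.33 ± 0.30. Of 7 regulators of mitochondrial gene expression 1 passed, the mitochondrial rRNA methyltransferase gene Tfb1m, from -0.32 ± 0.22 in C57BL/6 to 0.55 ± 0.28 in BALB/c. None of 14 assembly factors and coenzyme Q genes passed in limma, with 1 at an unadjusted p under 0.05, and no gene of the mitochondrial genome was among the elements with 1 symbol.

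Markers of other tissue were read from the same arrays. The log2 ratios cannot show whether a marker is present or absent. Of 4 adipose markers 2 passed the F test, Fabp4 and Lpl, and the mean of the 4 was -0.29 in C57BL/6 (pools -0.41 to -0.11) and 0.16 in 129X1/Sv (-0.14 to 0.36), the same extremes as the respiratory chain, with 0.04 in DBA/2 (-0.07 to 0.14), 0.13 in BALB/c and -0.14 in FVB/N. Over the 20 pools this mean correlated with the mean of the member genes at 0.55, and at 0.42 with the strain means removed. Of 9 luminal markers 3 passed. Epcam was -0.46 ± 0.07 in C57BL/6 and 0.41 ± 0.11 in 129X1/Sv, Sbp was 0.77 ± 0.18 and -0.94 ± 0.39 there, the opposite order, and Tmprss2 ran from -0.36 ± 0.12 in FVB/N to 0.29 ± 0.14 in C57BL/6. The mean of the luminal list lay between -0.15 and 0.00 in all strains. Of 8 skeletal muscle markers 2 passed, Acta1, highest in DBA/2, and Tnnc2, lowest in C57BL/6, and their mean was -0.24 in C57BL/6 (-0.51 to 0.22) and 0.12 in DBA/2 (-0.03 to 0.44). Of 6 seminal vesicle genes 3 passed, and their mean was 1.04 in BALB/c and between -2.72 and -1.43 in the other strains. Smooth muscle, endothelial and basal markers passed for 0 of 9, 0 of 5 and 0 of 1 genes in limma, with 0, 2 and 0 at an unadjusted p under 0.05. The endothelial mean was lowest in C57BL/6, at -0.13, and correlated with the member mean at 0.35 over the pools and 0.41 with strain means removed. That low mean rested mainly on Kdr, at -0.64 ± 0.08 in C57BL/6. Tie1, Tek, Eng and Cdh5 were -0.14, -0.03, 0.06 and 0.12 there, and Cdh5 was highest in C57BL/6. Fibroblast markers passed for 1 of 8, leukocyte markers for 1 of 3 and the erythrocyte marker Hbb-b1, highest in FVB/N, for 1 of 1. The fibroblast mean correlated with the member mean at -0.55 over the pools and -0.39 with strain means removed. It was -0.62 in 129X1/Sv pool 4, where the member mean was highest (0.29), and -0.18 to 0.30 in the other pools. No correlation was taken without that pool. Hbb-b1 correlated with the member mean at 0.52 and 0.41. The part of any of these in the strain differences of the respiratory chain was not tested.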

How the data were processed

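Amplified RNA of 20 prostate pools was hybridized on 2-colour cDNA arrays, each against the common reference. The deposited values are log2 ratios, sample channel over reference channel, that the authors computed from background-subtracted spot medians and normalized within each array by a smoother per print tip. They were used as given, and spot intensities were not used here. Groups, pool numbers and dyes came from the labels. Members were found by symbol in the array annotation, and all 71 elements, of 53 genes, were matched by gene identifier to the RefSeq gene table of GRCm38.p6, with 0 symbols changed.

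The 11159 elements that lacked at most 3 values and had 2 or more in every strain (393 did not) were fitted with limma 3.58.1 in R 4.3.3. A moderated F test over the 5 strains had 0.1 as the highest adjusted p called. Contrasts of a strain with the average of the 4 others were called under 0.05, with Benjamini-Hochberg adjustment over all elements tested. The study's methods name SAM, which was not run here. A gene with several elements is represented in means of complexes and lists by its most complete element, the first in the file among equals. The fit was tested on simulated data with independent noise. The planted shifts were larger than the widest span of a member, so that test did not cover smaller differences. Genes named are those with an element past a test, the 3 widest and 2 narrowest by span in each complex, and up to 3 list members past the F test. Members and lists were chosen with earlier results of these data known. Alternatives covered filters, centring, scaling, quantile normalization, dye, replicate block, gene averages, array weights, the spread estimate, moderation and leaving out pools or the 129X1/Sv arrays. Each pool came from separate mice, the p-values measure the spread between pools, and 4 pools per strain limit the precision. Promoters were those of RefSeq on the same build.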

Additional observations from a re-analysis of the deposited data

Results flagged for a closer look

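In 13 of 205 groups of 4 pools checked, over 35 elements of named genes, 5 complexes and the mean of all members, 1 pool lay far from the other 3 of its strain, and chance gives about 1 in 20. C57BL/6 pool 2 was low for Ndufa13 element 3818 (-0.43, the others -0.16 to -0.13), Ndufb7 element 8605 (-0.54, the others -0.24 to -0.23) and Uqcr11 (-0.55, the others -0.18 to -0.12). C57BL/6 pool 3 was high for Atp5o element 8614 (-0.04, the others -0.52 to -0.47). In 129X1/Sv, pool 4 was high for Uqcrh (0.70, the others -0.16 to -0.04) and Cox8a element 9790 (0.78, the others 0.20 to 0.30), and pool 1 was low for Ndufa13 element 3818 (-0.17, the others 0.38 to 0.48). In DBA/2, pool 1 was low for Sdhb (-0.37, the others -0.04 to -0.01) and pool 4 high for Uqcr10 (-0.04, the others -0.37 to -0.32). In FVB/N, pool 2 was high for Uqcr11 (0.27, the others 0.03 to 0.06) and pool 3 low for the mean of complex II (-0.21, the others 0.00 to 0.03). BALB/c pool 3 was low for Cox7a2l element 10581 (-0.11, the others 0.18 to 0.20) and for the mean of complex III (-0.20, the others 0.05 to 0.09).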

How the results depend on the processing

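The low values in C57BL/6 and DBA/2 and the high values in 129X1/Sv held with the arrays centred, scaled to the same spread or quantile normalized. Over these settings 57 to 58 of 71 elements were below the others in C57BL/6, 60 to 63 in DBA/2, and 62, 63 and 59 above in 129X1/Sv when scaled, quantile normalized and centred. Scaling and quantile normalization put the lowest mean of complex V, and of all member genes, in DBA/2 in place of C57BL/6. The cause of the moves below was not tested.

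Shares of all elements under the same setting are in brackets. The number of the 71 elements past the F test was 8 (11.3%), and it was 15 with arrays scaled to the same spread (14.2%), 16 with quantile normalization (14.2%), 21 with the dye as a term (15.6%), 1 on the Cy3 arrays alone (7.26%), 0 on the Cy5 arrays alone (2.72%), 27 with array weights (18.8%) and 15 without the 129X1/Sv arrays (13.2%). On the arrays of 1 dye each strain had 2 pools. The count with the pool number as a replicate block was 20 (12.8%). Deviations of same-numbered arrays correlated at -0.33 to 0.42 (above 0.1 in 23 of 40 pairs). Their median was 0.18, against -0.03 for other numbers, and 10 of 20 arrays correlated best with their own number. In 4 strains the same number also means the same dye, so this block cannot separate a pairing of pools from the dye. Leaving out 1 pool gave 4 (without C57BL/6 pool 3) to 19 (without 129X1/Sv pool 1, 13.6%), with 13 without 129X1/Sv pool 4 (15.5%) and 5 without DBA/2 pool 2.

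Elements apart in C57BL/6 numbered 2, and 8 with the dye as a term (4.27%), 6 with array weights (4.98%), 0 on the Cy3 (1.78%) and 0 on the Cy5 arrays (0.493%), and 0 to 4 with 1 pool left out (0 without pool 3 or pool 4 of C57BL/6, 1 without any of 7 other pools and 4 without 129X1/Sv pool 1). Those apart in 129X1/Sv numbered 5, and 1 with scaled arrays (2.14%) and 1 with quantile normalization (1.6%, Uqcr10 in both), 1 on the Cy3 arrays (6.38%), 0 on the Cy5 arrays (2.09%), 8 with the replicate block (6.03%), 0 with array weights (1.61%), and 1 (without its pool 4, 7.4%) to 10 (without its pool 1, 7.8%) with 1 pool left out. In FVB/N the count of 0 became 1 with complete elements alone, quantile normalization, the dye, gene averages or a robust spread, 2 with scaled arrays or array weights, 4 without the 129X1/Sv arrays (all 2.57% to 4.74%), and 0 to 3 with 1 pool left out (3 without 129X1/Sv pool 4). In BALB/c it became 1 with scaled arrays, quantile normalization, the dye, array weights or without the 129X1/Sv arrays (2.84% to 3.78%), and 0 to 1 with 1 pool left out (1 without C57BL/6 pool 4). In DBA/2 it became 3 with scaled arrays, quantile normalization, the dye or without the 129X1/Sv arrays (2.8% to 4.65%), 12 with array weights (7.58%), 1 with the replicate block (2.43%) or gene averages (2.01%), and 0 to 2 with 1 pool left out (2 without 129X1/Sv pool 4).

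The span of complex IV was 0.30, and 0.43 on the Cy5 arrays, and that of complex V was 0.27 and 0.40 there. With 1 pool left out the spans were 0.26 to 0.37 for complex I, 0.32 to 0.50 for II, 0.27 to 0.41 for III, 0.22 to 0.35 for IV and 0.20 to 0.32 for V. Sdhc passed the F test in every setting with pools of both dyes.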
